A study of Mus musculus with 18 samples.

Results

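The miR-29 family was examined over all 6 groups of a small RNA sequencing experiment in mouse NIH 3T3 fibroblasts. Its members were taken by name, not by their values. They are mmu-miR-29a-3p, mmu-miR-29b-3p and mmu-miR-29c-3p, the guide strands of the family, and mmu-miR-29a-5p, the passenger strand of the miR-29a hairpin (mmu stands for mouse and is left out below). These 4 names were found among 1900 mature miRNA names in the table, and all 4 were among the 481 miRNAs kept for testing, which reached a normalized value of 10 or more in 3 or more libraries. A name listed at several genomic copies was read from the copy of highest mean.

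There were 6 groups of 3 libraries each, all from the fibroblast line NIH 3T3 TetON and all kept in 1 µg/ml doxycycline for 48 h. SUN1L cells express the lumenal part of SUN1 with an ER retrieval sequence, a dominant-negative construct that disrupts the LINC complex, the chain of SUN and nesprin proteins that joins the cytoskeleton to the nucleus. KDEL cells express GFP with the same ER sequence and served as controls. The groups were KDEL cells on a 308 kPa (stiff) hydrogel with 10 µM of the myosin inhibitor blebbistatin, KDEL cells on 308 kPa with 25 µM Y27632, also used to inhibit myosin, SUN1L cells on 308 kPa, KDEL cells on 308 kPa, SUN1L cells on 1 kPa (soft) and KDEL cells on 1 kPa. Each construct was studied in 1 stable population made by retroviral transduction, and the KDEL population was further enriched by fluorescence sorting, so an effect of the construct and a difference between the populations cannot be told apart. The study's methods call the 3 libraries of a group biological replicates, and neither they nor the labels say how the cultures were separated, so part of the spread behind each p-value may be technical.

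As background, miRNAs of this family are among the best known repressors of extracellular matrix. They pair through the seed near the 5′ end with sites in the transcripts of fibrillar and basement membrane collagens, elastin and fibrillin, and in fibroblasts of heart, lung, liver and kidney they are known to be lowered by TGF-β. Loss of miR-29 favours collagen production, so the family is usually described as antifibrotic. A hairpin gives a duplex of which 1 strand, here the 3p strand, is loaded into the silencing complex, while the other is mostly degraded.

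The mature sequences of the 4 members and of the 3 passenger strands from the other miR-29 hairpins are shown because the seed, in capitals (bases 2 to 8 from the 5′ end), is what the guide strands share and the passenger strands do not. All 7 names were matched to RefSeq (GRCm38.p6).
miR-29a-3p: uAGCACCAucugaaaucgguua
miR-29b-3p: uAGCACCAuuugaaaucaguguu
miR-29c-3p: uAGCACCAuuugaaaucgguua
miR-29a-5p: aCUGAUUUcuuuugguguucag
miR-29b-1-5p: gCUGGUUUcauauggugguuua
miR-29b-2-5p: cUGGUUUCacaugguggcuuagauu
miR-29c-5p: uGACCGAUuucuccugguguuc
The seed AGCACCA was carried by 3 of 1679 mature mouse names in RefSeq, the 3 guide strands of this family. Relative to miR-29a-3p, counting positions from 1 at the 5′ end, miR-29c-3p differs by the single substitution C10U, and miR-29b-3p by C10U, G18A, U21G and A22U in the 22 bases compared. The last 6 bases of miR-29b-3p (AGUGUU) are known from human cells as a signal that directs it to the nucleus, and miR-29a-3p and miR-29c-3p end otherwise.

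The family is encoded in 2 clusters, and the hairpins are shown with both mature strands in capitals to tell which strands are cut from the same precursor.
Mir29a: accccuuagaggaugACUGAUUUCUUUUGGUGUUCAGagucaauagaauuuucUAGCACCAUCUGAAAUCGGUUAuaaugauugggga
Mir29b-1: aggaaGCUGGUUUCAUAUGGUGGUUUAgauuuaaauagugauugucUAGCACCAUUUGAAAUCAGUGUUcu
Mir29b-2: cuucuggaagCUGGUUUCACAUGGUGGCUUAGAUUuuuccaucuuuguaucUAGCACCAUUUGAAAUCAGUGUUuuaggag
Mir29c: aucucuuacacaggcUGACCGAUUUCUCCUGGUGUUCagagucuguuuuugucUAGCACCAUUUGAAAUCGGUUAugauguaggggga
Mir29a lies at chr6:31062660-31062747 and Mir29b-1 at chr6:31063023-31063093, both on the minus strand of GRCm38 and 275 bases apart, with no other RefSeq gene over them and Klf14 as the nearest protein-coding gene, 104 kb away from each. Mir29b-2 lies at chr1:195037040-195037120 and Mir29c at chr1:195037547-195037634, both on the plus strand and 426 bases apart, within the span of the long noncoding RNA gene A330023F24Rik and within 1.85 kb of Cd46. The positions of all mature strands in the table were those of GRCm38. miR-29b-3p is the same sequence from Mir29b-1 and Mir29b-2. Its 2 entries in the table differed by at most 0.516%, so the reads cannot be assigned to either cluster, whereas the strands miR-29b-1-5p and miR-29b-2-5p each come from 1 hairpin.

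The libraries held 1.36 M to 8.49 M recovered miRNA reads, and the lowest number belonged to blebbistatin library 3. That library stood apart: the median value of the 481 tested miRNAs was 15.5 in it and 39.1 to 212 in the other 17. The same median moved with the groups. It was 160 and 162 in blebbistatin libraries 2 and 1, and 189 to 212 with Y27632. On 308 kPa it was 142 to 173 for SUN1L and 145 to 159 for KDEL, and on 1 kPa it was 39.1 to 87.2 for SUN1L and 91.5 to 103 for KDEL. The typical value was thus lower on the soft substrate, and there lower for SUN1L, and each result of the family is given beside this background. miRNAs typical of fibroblasts (miR-21a-5p, miR-143-3p, miR-145a-5p, miR-199a-3p, miR-199a-5p and miR-214-3p) summed to 502459 or more in every library, while miR-124-3p of neurons and miR-223-3p of blood cells reached at most 2.23 and 3.11. The muscle list, carried by miR-206-3p with miR-133a-3p at most 2.89, summed to 844 to 972 for SUN1L and 663 to 936 for KDEL on 308 kPa, and to 333 to 525 for SUN1L and 526 to 642 for KDEL on 1 kPa. The epithelial list summed to 476 to 660 for SUN1L and 205 to 286 for KDEL on 308 kPa, without overlap. Taken singly, 13.7% of all tested miRNAs were higher without overlap in SUN1L cells there. The sum was 264 to 518 with Y27632 and 45.2 to 298 with blebbistatin. On 1 kPa it was 198 to 433 for SUN1L and 147 to 233 for KDEL, and miR-141-3p reached at most 3.18 in any library. miR-9-5p, known from neurons, lay between 2185 and 24173. The part of these lists in the results was not tested.

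The family was carried by 1 member. miR-29a-3p was the 15th most abundant of 1900 names by its mean of 93770, miR-29b-3p was the 127th (1578), miR-29a-5p the 220th (196) and miR-29c-3p the 226th (173). Of the summed value of the 4 members, miR-29a-3p held 94.4% to 98.6% in every library. The summed level of the 4 members made up 0.137% to 2.88% of all miRNA values of a library with blebbistatin, and 2.17% to 2.69% with Y27632. On 308 kPa it was 1.58% to 2.55% for SUN1L and 1.84% to 2.02% for KDEL, and on 1 kPa it was 0.230% to 0.697% for SUN1L and 0.860% to 1.14% for KDEL. The share was thus lower in each SUN1L library than in each KDEL library on the soft substrate, and the ranges overlapped on the stiff substrate. By normalized value, 41.4% of the 481 tested miRNAs were also lower without overlap in SUN1L cells on the soft substrate. As a share of the total, the other miRNAs were not counted. A share also depends on the other miRNAs, and miR-21a-5p alone held 19.3% to 24.9% of all values for SUN1L and 19.8% to 29.0% for KDEL on 308 kPa, and 35.6% to 40.2% for SUN1L and 25.4% to 38.1% for KDEL on 1 kPa. With miR-21a-5p left out of the total, the mean family share was 2.67% for SUN1L and 2.53% for KDEL on 308 kPa, and 0.767% for SUN1L and 1.54% for KDEL on 1 kPa. In bulk libraries a lower level cannot tell fewer cells expressing a miRNA from less of it per cell.

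miR-29a-3p, the dominant guide strand, had values of 141548, 121584 and 2291 with blebbistatin and of 155826, 179196 and 192624 with Y27632. It had 149955, 84660 and 128811 in SUN1L cells on 308 kPa, against 115057, 99634 and 106130 in KDEL cells on 308 kPa. On 1 kPa it had 28540, 7113 and 26806 in SUN1L cells, against 55514, 37290 and 55289 in KDEL cells. By group mean the order was Y27632 (175882 ± 18621), SUN1L on 308 kPa (121142 ± 33316), KDEL on 308 kPa (106940 ± 7744), blebbistatin (88474 ± 75301), KDEL on 1 kPa (49364 ± 10457) and SUN1L on 1 kPa (20820 ± 11902; SD, n = 3 each). The Y27632 libraries lay above all others, and the SUN1L libraries on 1 kPa lay below all others but blebbistatin library 3. How many of all tested miRNAs lay so against all other libraries was not counted. Against untreated KDEL cells on 308 kPa, 32.2% of them were higher without overlap with Y27632. On 1 kPa, 41.4% were lower without overlap in SUN1L than in KDEL cells. The neighbours SUN1L on 308 kPa, KDEL on 308 kPa and blebbistatin overlapped, and so did blebbistatin and KDEL on 1 kPa through blebbistatin library 3. Blebbistatin libraries 1 and 2 lay above all 3 untreated KDEL libraries on 308 kPa, as for 17.5% of all tested miRNAs.

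miR-29b-3p, the guide strand made by both clusters, had values of 1854, 1612 and 111 with blebbistatin and of 2991, 1983 and 2444 with Y27632. It had 2798, 1143 and 1751 in SUN1L cells on 308 kPa, against 3434, 1450 and 1451 in KDEL cells on 308 kPa. On 1 kPa it had 987, 389 and 908 in SUN1L cells, against 1676, 686 and 733 in KDEL cells. All neighbouring groups in the order of its means overlapped. The first library of each untreated group and of the Y27632 group, whose title numbers run from 37 to 42, held the highest miR-29b-3p value of its group.

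miR-29c-3p, which differs from miR-29a-3p by 1 base, had values of 229, 228 and 1.29 with blebbistatin, where the last is a single read, and of 363, 301 and 323 with Y27632. It had 247, 173 and 230 in SUN1L cells on 308 kPa, against 236, 166 and 190.5 in KDEL cells on 308 kPa. On 1 kPa it had 45.6, 11.9 and 56.6 in SUN1L cells, which were 44, 10 and 85 reads, against 152, 70.2 and 84.7 in KDEL cells. On 1 kPa 41.4% of all tested miRNAs were lower without overlap in SUN1L than in KDEL cells, and for Y27632 against SUN1L on 308 kPa this share was not counted. The order of groups of miR-29c-3p was that of miR-29a-3p, again with Y27632 above and SUN1L on 1 kPa below the next group without overlap. Its value was 0.153% to 0.273% of the miR-29a-3p value in 17 libraries and 0.0563% in blebbistatin library 3, and reads of these near-identical strands may be shared between the entries, so its level is uncertain.

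miR-29a-5p, the passenger strand of the Mir29a hairpin, had values of 249, 201 and 1.29 (1 read) with blebbistatin and of 389, 243 and 251 with Y27632. It had 397, 178 and 161 in SUN1L cells on 308 kPa, against 429, 173 and 152 in KDEL cells on 308 kPa. On 1 kPa it had 161, 17.8 and 81.9 in SUN1L cells, against 262, 95.7 and 90.1 in KDEL cells. All neighbouring groups overlapped, and the library with title number 37 to 42 was again the highest in each of the 5 groups that held one.

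**Figure D1:**
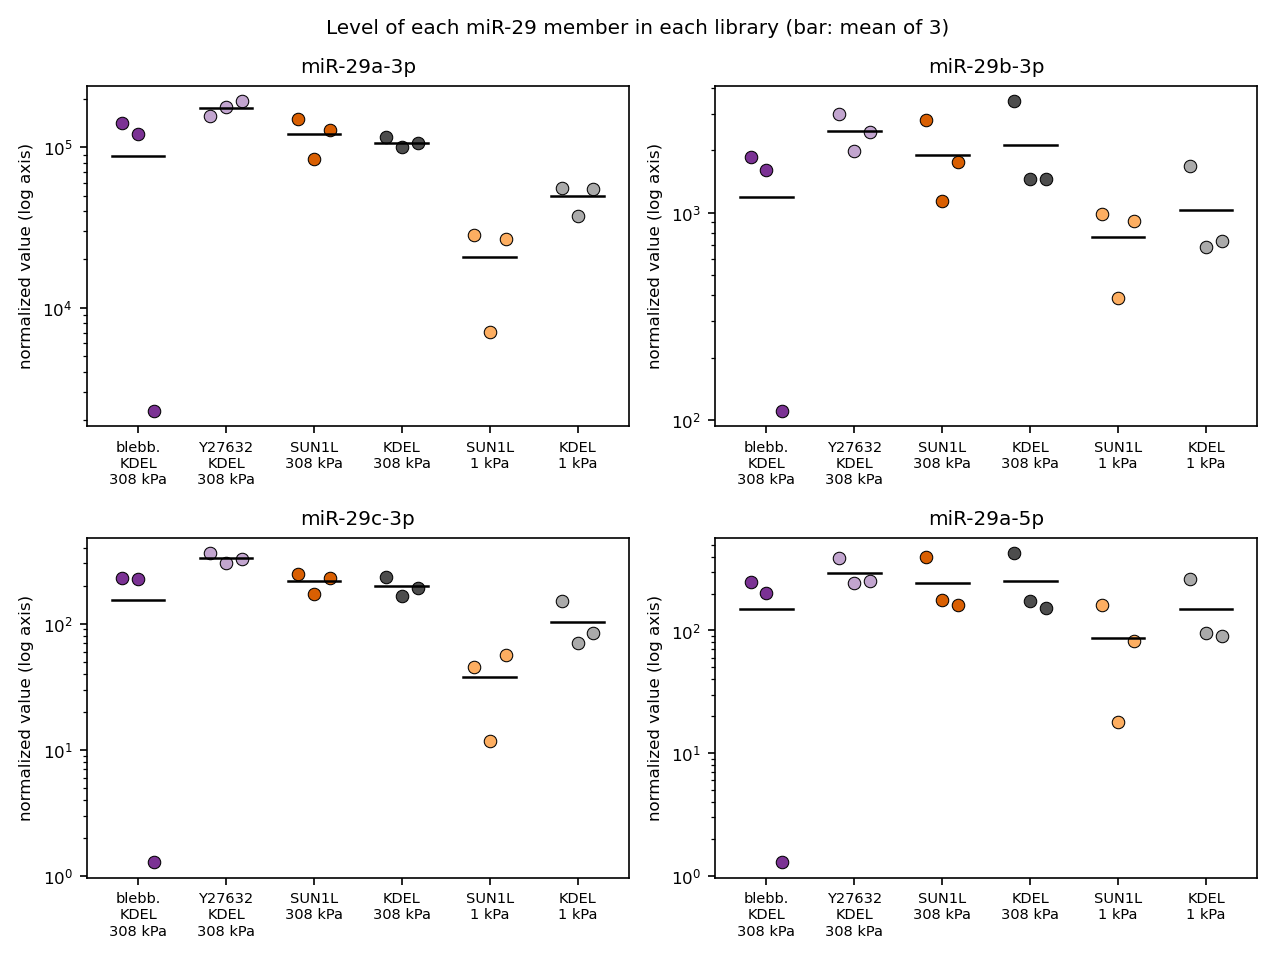
Normalized value (log axis) of miR-29a-3p, miR-29b-3p, miR-29c-3p and miR-29a-5p in each of 18 libraries; points are libraries in the order 1 to 3 and bars are means of 3. miR-29a-3p lay at 7113 to 28540 in SUN1L cells on 1 kPa, against 37290 to 55514 in KDEL cells on 1 kPa, and blebbistatin library 3 stands below the other blebbistatin libraries in all 4 panels.

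The first comparison asked what LINC disruption did on the soft substrate. miR-29a-3p and miR-29c-3p were lower in every SUN1L library than in every KDEL library, which 41.4% of the 481 tested miRNAs also were, while miR-29b-3p and miR-29a-5p overlapped. In the limma fit of log2(value + 1) over all 18 libraries, 0 of 4 members passed an adjusted p under 0.05 (Benjamini-Hochberg over 481 miRNAs) and 0 had an unadjusted p under 0.05. There 2.7% of all tested miRNAs were called, each of them higher in SUN1L cells. The log2 fold change of miR-29a-3p was -1.46 (95% interval -3.8 to 0.87, adjusted p = 0.444). Without blebbistatin library 3, which belongs to neither group but widens the spread that all groups share, the same fold change had an interval of -2.29 to -0.64 and miR-29a-3p was 2.76-fold lower in SUN1L cells (adjusted p = 0.00623). miR-29c-3p was then 3-fold lower (log2 fold change -1.58 ± 0.43 SE, adjusted p = 0.00705), and 43.9% of all tested miRNAs were called, 37.2% lower and 6.65% higher. miR-29a-5p (log2 fold change -1.07, adjusted p = 0.165) and miR-29b-3p (-0.42, adjusted p = 0.44) were not called. With the run of title numbers as a covariate in the 15 libraries without blebbistatin, miR-29a-5p was called as well (adjusted p = 0.0309), among 52% of all tested miRNAs, and it was not in the same libraries with no covariate (adjusted p = 0.181). The median fold change of the 4 members was -1.27 on the log2 scale and that of all tested miRNAs was -0.68.

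Part of the difference was thus common to most miRNAs. When the libraries were scaled by the median of ratios, again without blebbistatin library 3, the median of all tested miRNAs was 0.01 and miR-29a-3p and miR-29c-3p still fell by 0.75 and 0.90 on the log2 scale (adjusted p = 0.0206 and 0.0271), among 39.3% of all tested miRNAs called, now 20.8% lower and 18.5% higher. miR-29b-3p had a log2 fold change of 0.29 under this scaling, against -0.42 in the deposited values. SUN1L library 2 on 1 kPa was the lowest of its group for each member, and without it and blebbistatin library 3 the log2 fold change of miR-29a-3p was -0.81 (adjusted p = 0.016). Within the runs of consecutive title numbers, which each hold 1 library of either group, the difference of miR-29a-3p was -0.96, -2.39 and -1.04, and it was -0.58, -1.19 and -0.92 after the difference of the library medians was taken off. In these 3 pairs miR-29c-3p was lower in 3 of 3, with differences of -2.47 to -0.57, and of -1.33 to -0.44 after the medians were taken off, and miR-29b-3p was lower in 2 of 3 and, after the medians were taken off, in 1 of 3.

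On the stiff substrate the same comparison gave log2 fold changes of 0.14 ± 1.1 (SE) for miR-29a-3p, 0.13 ± 1.25 for miR-29c-3p, 0.0027 ± 1.34 for miR-29a-5p and -0.12 ± 0.85 for miR-29b-3p in the fit over all 18 libraries. No member was called, 0 had an unadjusted p under 0.05 in either fit, and the groups overlapped for all 4. The 95% interval of miR-29a-3p without blebbistatin library 3 ran from -0.68 to 0.96. Of all tested miRNAs 3.12% were called with all libraries and 3.74% without that library, each time higher in SUN1L cells, and 4.57% with median-of-ratios scaling in addition (3.95% higher, 0.624% lower), with no member among them. The sign of the miR-29a-3p value turned when SUN1L library 1 on 308 kPa was left out (-0.03).

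The SUN1L effect on 308 kPa minus that on 1 kPa was tested as an interaction. It was 1.61 on the log2 scale for miR-29a-3p, 1.72 for miR-29c-3p, 1.07 for miR-29a-5p and 0.30 for miR-29b-3p, with adjusted p from 0.783 to 0.889 over all 18 libraries and from 0.0651 to 0.753 without blebbistatin library 3. No member was called in either fit, with 0 and then 2 of 4 at an unadjusted p under 0.05, and 0.208% of all tested miRNAs were called in each. In a fit of the 15 libraries without blebbistatin that took the run of title numbers as a covariate, miR-29a-3p (adjusted p = 0.0283) and miR-29c-3p (adjusted p = 0.0286) were called, among 26.2% of all tested miRNAs. With the same 15 libraries and no covariate 0 of 4 members were called (2 of 4 at an unadjusted p under 0.05), and 0% of all tested miRNAs.

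The next comparison asked how the family differed between the stiff and the soft substrate. In SUN1L cells each member had its highest log2 fold change of the 7 comparisons. miR-29a-3p, miR-29b-3p and miR-29c-3p were higher in every 308 kPa library than in every 1 kPa library, as were 65.7% of all tested miRNAs, and miR-29a-5p overlapped by a small margin (160.6 in the lowest 308 kPa library, against 160.7 in the highest 1 kPa library). In the fit over all 18 libraries, miR-29a-3p had a log2 fold change of 2.74 ± 1.1 (SE, adjusted p = 0.0971), miR-29c-3p of 2.72 ± 1.25 (0.117), miR-29a-5p of 1.84 ± 1.34 (0.262) and miR-29b-3p of 1.33 ± 0.85 (0.214). No member was called, with 2 of 4 at an unadjusted p under 0.05 and 4.16% of all tested miRNAs called (3.95% higher, 0.208% lower). When blebbistatin library 3 was left out, all 4 rose in limma: miR-29a-3p by 6.7-fold (adjusted p = 1.46e-05), miR-29c-3p by 6.61-fold (3.82e-05), miR-29a-5p by 3.58-fold (0.0141) and miR-29b-3p by 2.52-fold (0.0126). Of all tested miRNAs 69.9% were called in that fit, 66.9% higher and 2.91% lower. The median fold change was 2.28 for the members and 1.34 for all tested miRNAs on the log2 scale.

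Scaling set these members apart from each other. With median-of-ratios scaling and without blebbistatin library 3, miR-29a-3p and miR-29c-3p were again called higher on the stiff substrate (log2 fold changes 1.4 and 1.41, adjusted p = 0.000137 and 0.00104), among 26.8% of all tested miRNAs called higher and 22.7% called lower. There miR-29b-3p was at -0.0083 and miR-29a-5p was not called. Quantile scaling gave 1.24 for miR-29a-3p, 1.56 for miR-29c-3p and 0.018 for miR-29b-3p. Within the runs of title numbers, miR-29a-3p was higher by 2.39, 3.57 and 2.26 on the log2 scale, and by 1.31, 1.74 and 1.28 after the library medians were taken off. For miR-29b-3p the differences ran from 0.95 to 1.55, and from -0.28 to 0.42 after the medians were taken off, above 0 in 1 of 3 runs.

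In KDEL cells the deposited values differed less between the substrates, but the difference from SUN1L cells is the interaction given above, which was not called in either of the first fits. For miR-29b-3p the order turned with median-of-ratios scaling and without blebbistatin library 3, at 0.47 in KDEL cells beside -0.0083 in SUN1L cells. miR-29a-3p and miR-29c-3p were higher in every 308 kPa library than in every 1 kPa library, against 40.7% of all tested miRNAs, and miR-29b-3p and miR-29a-5p overlapped. The log2 fold changes were 1.14 for miR-29a-3p, 1.03 for miR-29b-3p, 1.01 for miR-29c-3p and 0.77 for miR-29a-5p, with a median of 1.02 beside 0.54 for all tested miRNAs. No member was called over all 18 libraries (adjusted p = 0.769 to 0.774, 0 at an unadjusted p under 0.05, 0% of all miRNAs called), nor without blebbistatin library 3 (miR-29a-3p adjusted p = 0.0611, 3 of 4 at an unadjusted p under 0.05, 7.07% of all called, 6.86% higher and 0.208% lower), and with median-of-ratios scaling in addition 0 of 4 were called beside 1.04% of all called higher and 1.66% lower (1 of 4 at an unadjusted p under 0.05). With the run of title numbers as a covariate in the 15 libraries without blebbistatin, the 3 guide strands were called, among 25.4% of all tested miRNAs: miR-29a-3p (adjusted p = 0.0241), miR-29b-3p (0.0204) and miR-29c-3p (0.0422). The difference of miR-29a-3p within the runs was 1.05, 1.42 and 0.94, and 0.46, 0.63 and 0.35 after the library medians were taken off.

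**Figure D2:**
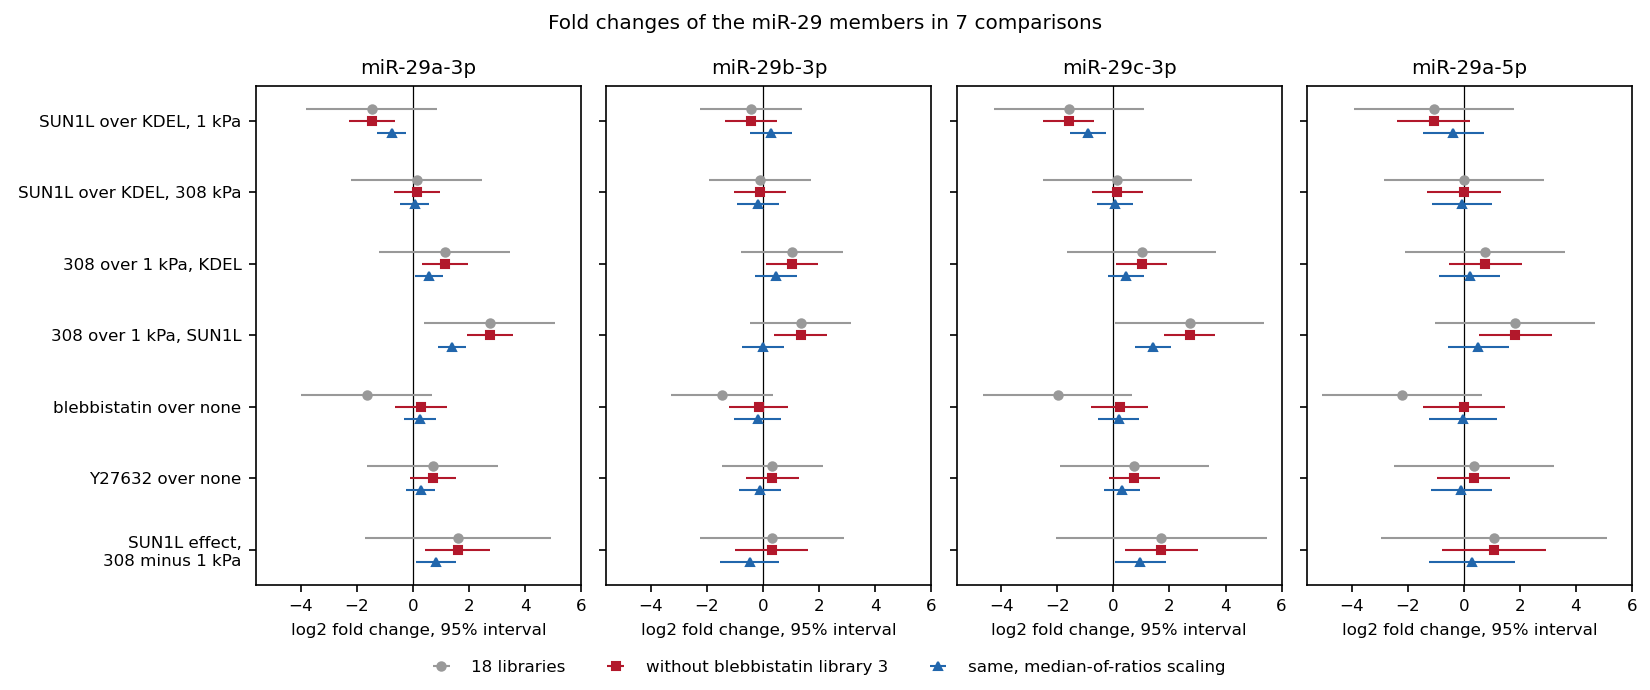
Log2 fold changes with 95% intervals (limma) of the 4 members in 6 comparisons and in the SUN1L effect on 308 kPa minus that on 1 kPa, with all 18 libraries (grey circles), without blebbistatin library 3 (red squares) and with median-of-ratios scaling in addition (blue triangles). Without blebbistatin library 3 the interval of miR-29a-3p for SUN1L over KDEL on 1 kPa is -2.29 to -0.64, and miR-29b-3p lies at -0.42 in the deposited values and at 0.29 after scaling.

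The last comparisons asked whether myosin inhibition in KDEL cells on the stiff substrate moved the family. With Y27632, miR-29a-3p and miR-29c-3p were above all untreated libraries, as were 32.2% of tested miRNAs, and the other members overlapped. The log2 fold changes were 0.71 for miR-29a-3p, 0.75 for miR-29c-3p, 0.35 for miR-29a-5p and 0.33 for miR-29b-3p, with a median of 0.53 beside 0.43 for all tested miRNAs. No member was called over all 18 libraries (0 at an unadjusted p under 0.05) or without blebbistatin library 3 (miR-29a-3p adjusted p = 0.39, again 0 at an unadjusted p under 0.05), and 0% of all tested miRNAs were called in each fit. With SUN1L library 2 on 1 kPa also left out, miR-29a-3p was called (adjusted p = 0.0482), among 8.94% of all tested miRNAs.

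With blebbistatin the outcome rested on 1 library. The log2 fold changes were -1.65 for miR-29a-3p, -1.99 for miR-29c-3p, -2.21 for miR-29a-5p and -1.48 for miR-29b-3p over all 18 libraries, each with an adjusted p of 0.348, and 0% of all tested miRNAs were called. When library 3 was left out they were 0.30, 0.22, -0.0047 and -0.16 in the same order, with the sign of miR-29a-3p and miR-29c-3p turned, 0% of all tested miRNAs called and 0 of 4 members at an unadjusted p under 0.05 in either fit. The 95% interval of miR-29a-3p was then -0.62 to 1.22. Blebbistatin libraries 1 and 3 have title numbers 54 and 34, outside the runs that hold the untreated libraries. An effect of blebbistatin and a difference by title number therefore cannot be told apart for them. Only blebbistatin library 2 shares a run with an untreated KDEL library on 308 kPa. In that single pair the log2 difference of miR-29a-3p was 0.29. The difference between the inhibitors was not tested, and both comparisons use the same 3 untreated libraries.

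**Figure D3:**
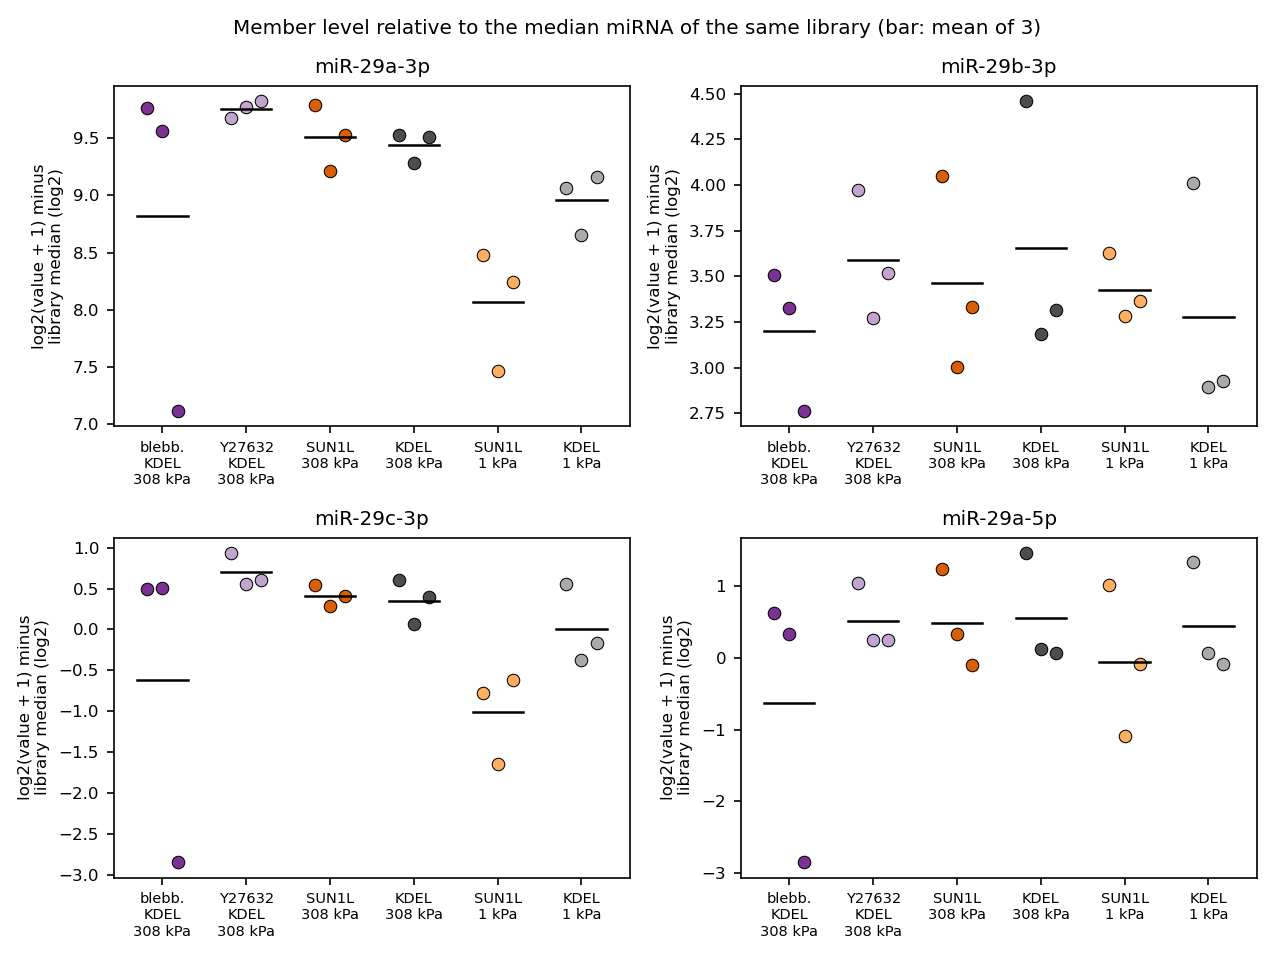
Level of each member as log2(value + 1) minus the median of the 481 tested miRNAs in the same library; points are libraries and bars are means of 3, and each panel has its own vertical axis. For miR-29a-3p the mean is 8.07 in SUN1L cells on 1 kPa, against 8.96 in KDEL cells on 1 kPa, while for miR-29b-3p it is 3.42 and 3.28 in the same groups.

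Ratios within a library do not depend on its scaling. The miR-29b-3p value was 3.46%, 5.47% and 3.39% of the miR-29a-3p value in SUN1L cells on 1 kPa, against 3.02%, 1.84% and 1.33% in KDEL cells on 1 kPa. In SUN1L cells on 308 kPa it was 1.87%, 1.35% and 1.36%, against 2.98%, 1.46% and 1.37% in KDEL cells on 308 kPa. Thus miR-29b-3p made up more of the family in SUN1L cells on the soft substrate than in any other library but blebbistatin library 3 (4.84%). The ratio was 2.06-fold higher in SUN1L than in KDEL cells on 1 kPa and 0.377 times as high on 308 kPa as on 1 kPa in SUN1L cells, with no overlap in either comparison. An exact two-sided permutation test of 3 against 3 libraries gave p = 0.1 for both, the smallest p this design allows, and 0.9 after adjustment over the 18 tests of 3 ratios in 6 comparisons. The ratio was also higher in the libraries with title numbers 37 to 42, where it was 1.87% to 3.02% in groups other than SUN1L on 1 kPa, than in those with numbers 43 to 48 (1.11% to 1.84%) and 49 to 53 (1.27% to 1.37%). Within each run the SUN1L library on 1 kPa had the highest ratio. Relative to the library median, miR-29b-3p averaged 3.42 on the log2 scale in SUN1L and 3.28 in KDEL cells on 1 kPa. In SUN1L cells on 308 kPa it averaged 3.46. miR-29a-3p averaged 8.07, 8.96 and 9.51 in the same groups, so the higher ratio went with a lower miR-29a-3p. How many of all tested miRNAs had a ratio to miR-29a-3p without overlap was not counted.

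The ratio of miR-29c-3p to miR-29a-3p overlapped between the groups in all 6 comparisons, with exact permutation p from 0.4 to 0.9. The ratio of miR-29a-5p to miR-29a-3p, the passenger over the guide of 1 hairpin, was 0.563%, 0.250% and 0.306% in SUN1L cells on 1 kPa, against 0.472%, 0.257% and 0.163% in KDEL cells on 1 kPa. It was 0.265%, 0.211% and 0.125% in SUN1L cells on 308 kPa, against 0.373%, 0.174% and 0.143% in KDEL cells on 308 kPa. These ranges overlapped in all 6 comparisons as well, with exact permutation p from 0.2 to 0.9.

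**Figure D4:**
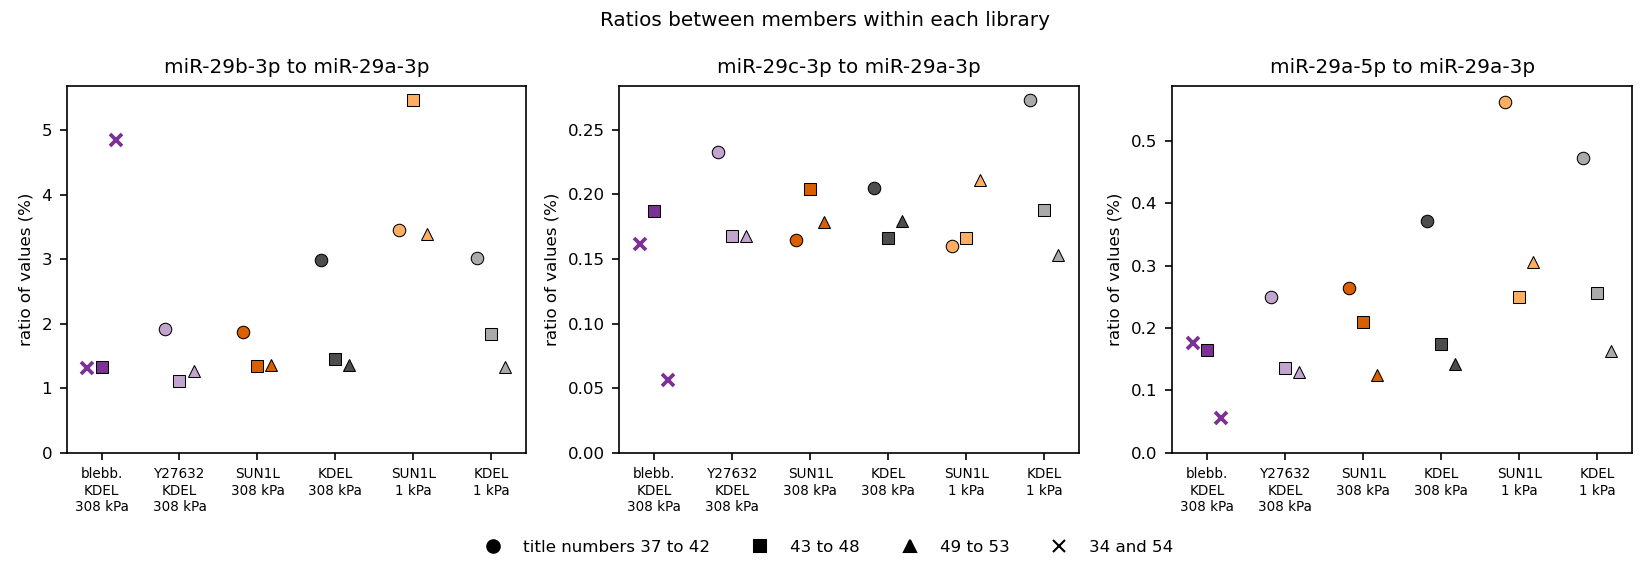
Value of miR-29b-3p, miR-29c-3p and miR-29a-5p as a percentage of miR-29a-3p in the same library (linear axes from 0); symbols give the run of title numbers. SUN1L libraries on 1 kPa lie at 3.39% to 5.47% for miR-29b-3p, against 1.33% to 3.02% for KDEL libraries on 1 kPa, and circles (title numbers 37 to 42) tend to lie high in the outer panels.

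The passenger strands of the other hairpins each come from 1 cluster, unlike miR-29b-3p. Passenger strands are mostly degraded, and whether their levels follow the output of a cluster was not tested. miR-29b-1-5p, cut from the hairpin beside Mir29a, had values of 132, 32.0 and 113 in SUN1L cells on 1 kPa, against 217, 172 and 229 in KDEL cells on 1 kPa, and of 632, 294 and 645 in SUN1L cells on 308 kPa, against 402, 861 and 692 in KDEL cells on 308 kPa. miR-29b-2-5p, from the cluster with Mir29c, had 18.7, 1 (0 reads) and 21.3 in SUN1L cells on 1 kPa, against 29.3, 25.5 and 33.1 in KDEL cells on 1 kPa. On 308 kPa it had 73.9, 43.5 and 59.6 in SUN1L cells, against 55.9, 56.1 and 66.8 in KDEL cells. On 1 kPa each SUN1L value of both strands lay below each KDEL value, as for 41.4% of all tested miRNAs. Over all 18 libraries none of the 3 passenger strands shown here was called in any comparison, with adjusted p from 0.106 up and unadjusted p of 0.0327 for miR-29b-1-5p and 0.0355 for miR-29b-2-5p in 308 against 1 kPa in SUN1L cells. In the fit without blebbistatin library 3, miR-29b-1-5p was called in SUN1L against KDEL cells on 1 kPa (log2 fold change -1.37, adjusted p = 0.0188), in 308 against 1 kPa in SUN1L cells (2.64, adjusted p = 6.85e-05) and in 308 against 1 kPa in KDEL cells (1.6, adjusted p = 0.0423). miR-29b-2-5p was called in the first (-1.66, adjusted p = 0.0317) and the second (2.62, adjusted p = 9.21e-04) of these. Of all tested miRNAs 43.9%, 69.9% and 7.07% were called in these comparisons, in the order given. The fold changes of miR-29b-2-5p lean on SUN1L library 2 on 1 kPa, at the floor, beside 18 and 32 reads in libraries 1 and 3. Within the runs of title numbers its log2 differences were -0.63, -3.73 and -0.61 in the first comparison. They were 1.93, 4.48 and 1.44 in the second. miR-29c-5p, the passenger strand of Mir29c, had only 42.5, 10.7 and 27.3 in SUN1L cells on 1 kPa, against 39.4, 21.3 and 21.6 in KDEL cells on 1 kPa, and was called in no comparison in either fit.

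Over the 17 libraries without blebbistatin library 3, after the library median was taken off, the level of miR-29a-3p correlated with that of miR-29c-3p (Pearson r = 0.95, Spearman rho = 0.81), miR-29b-2-5p (0.90 and 0.85) and miR-29b-1-5p (0.89 and 0.71). It correlated less with its own passenger strand miR-29a-5p (0.50 and 0.38) and with miR-29b-3p (0.28 and 0.32). With miR-29c-5p, the passenger strand of Mir29c, the correlation was negative (-0.44 and -0.42). miR-29b-3p and miR-29a-5p had a correlation of 0.78 (rho 0.69) with each other. These are descriptions without a test, since libraries of a group are alike and all values share the scaling of their library. Reads of miR-29a-3p and miR-29c-3p, which differ by 1 base, may also be shared between the entries.

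Among the 477 other tested miRNAs, those whose levels followed miR-29a-3p most closely over the same 17 libraries were miR-186-5p (r = 0.98), miR-31-5p (0.96), miR-194-5p (0.96), miR-339-5p (0.96) and miR-107-3p (0.95). With blebbistatin library 3 included these were 0.97, 0.97, 0.98, 0.94 and 0.97 in the same order. High values are common in this table, where the upper quartile over the 477 was 0.70. In SUN1L against KDEL cells on 1 kPa the log2 fold changes of these 5, in that order, were -1.49, -1.87, -2.56, -2.3 and -2.18, beside -1.46 for miR-29a-3p.

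Other miRNAs known to act on matrix production were counted from 2 lists. Of 14 miRNAs known to restrain matrix or fibrosis, such as let-7d-5p and the miR-30 and miR-200 families, 13 were in the table and 12 were tested. Over all 18 libraries 1 was called in 1 comparison: let-7d-5p, which restrains HMGA2, was higher on 308 than on 1 kPa in SUN1L cells (log2 fold change 2.74, adjusted p = 0.0417; 4 of 12 at an unadjusted p under 0.05), where 3.95% of all tested miRNAs were called higher. With blebbistatin library 3 left out, 7 of 12 were called lower and 1 higher in SUN1L than in KDEL cells on 1 kPa. Of all tested miRNAs 37.2% were called lower and 6.65% higher there. The median of the list was -0.98 on the log2 scale, beside -0.68 for all tested miRNAs. let-7d-5p averaged 3925 ± 1118 in SUN1L cells on 1 kPa and 11218 ± 4493 in KDEL cells on 1 kPa (log2 fold change -1.49, adjusted p = 0.00167). miR-30c-5p, which targets connective tissue growth factor, averaged 6641 ± 3525 in SUN1L cells and 20179 ± 4077 in KDEL cells there (-1.78, adjusted p = 0.00147), and miR-200b-3p, an epithelial miRNA, was the one called higher (1.19, adjusted p = 0.0385). The more abundant miR-30a-5p was not called, at 143413 ± 46166 in SUN1L and 151131 ± 20964 in KDEL cells there (-0.12, adjusted p = 0.716). On 308 against 1 kPa 9 of 12 were called higher in SUN1L cells, beside 66.9% of all tested miRNAs, and 3 of 12 in KDEL cells, beside 6.86%, with 0 lower in either. With median-of-ratios scaling in addition, 5 were called higher and 2 lower in SUN1L cells, beside 26.8% of all higher and 22.7% lower, and 0 in KDEL cells.

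Of 13 miRNAs known to promote matrix or the myofibroblast state, 12 were in the table and 10 were tested. Over all 18 libraries 0 were called by limma in any comparison, with 0 to 2 of 10 at an unadjusted p under 0.05. When blebbistatin library 3 was left out, 6 of 10 were called lower and 0 higher in SUN1L than in KDEL cells on 1 kPa, with a median of -1.04, and 7 of 10 were called higher on 308 than on 1 kPa in SUN1L cells, with a median of 1.78 beside 1.34 for all tested miRNAs, of which 66.9% were called higher. With median-of-ratios scaling 4 were higher and 3 lower in that comparison, beside 26.8% and 22.7% of all. miR-322-5p averaged 321 ± 231 in SUN1L cells and 1539 ± 404 in KDEL cells on 1 kPa (-2.61, adjusted p = 0.00147), and miR-145a-5p, known from smooth muscle and myofibroblasts, averaged 2773 ± 1644 in SUN1L cells and 5327 ± 1360 in KDEL cells on 1 kPa (-1.13, adjusted p = 0.026). Not called between these groups in the deposited values without blebbistatin library 3 were miR-192-5p (log2 fold change 0.53), miR-143-3p (0.37), miR-21a-5p (0.08) and miR-199a-5p (-0.97). The called members of both lists were thus mostly lower, and 37.2% of all tested miRNAs were called lower in that comparison and 6.65% higher. After median-of-ratios scaling 5 of the first list were called lower and 3 higher on 1 kPa, and 3 of the second were lower and 3 higher, beside 20.8% of all tested miRNAs lower and 18.5% higher.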

How the data were processed

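Small RNA was sequenced in 18 libraries of NIH 3T3 TetON fibroblasts (3 in each of 6 groups, from the labels). Per the study's methods, FastQC was run first, adapters were cut from the 3′ ends, inserts under 15 bases were discarded, and the rest were counted in AvadisNGS against miRBase release 20 where their 5′ end matched a mature miRNA. The deposited values are a normalized signal with a floor of 1, made by the authors. Above it, all values of up to 2000 reads were whole multiples of 1 step per library (tolerance 0.1; 0.666 to 1.55 per read), which gave the recovered reads; no column of values was left unused. The labels name mm9, but the positions are those of GRCm38. Of 2035 entries, 1900 names remained, with the copy of highest mean kept. Names with at least 10 in at least 3 libraries (481) were fitted as log2(value + 1) in limma (version 3.58.1, R 4.3.3, with trend) over all 18 libraries, adjusted by Benjamini-Hochberg, and called at 0.05; fold changes on this scale understate those of low miRNAs. The scripts were tested on simulated data. Ratios were tested by exact permutation (SciPy 1.17.1). Alternatives were other scalings, filters, pseudocounts, array weights, run covariates and each library left out. The members and lists were chosen with earlier results of these data known. Named miRNAs are the members, their partner strands, the 5 most correlated with miR-29a-3p, list members that were called, and some that were not. Fits without blebbistatin library 3 and with another scaling, or without SUN1L library 2 on 1 kPa as well, were added after seeing the data.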

Additional observations from a re-analysis of the deposited data

How the results depend on the processing

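Over all 18 libraries no member was called in any of 7 comparisons, and this count held under other scalings, pseudocounts and filters and with the mean of the copies. Leaving out blebbistatin library 3 changed it in 2 comparisons. With SUN1L against KDEL on 1 kPa, 2 members were called without that library (43.9% of all tested miRNAs), 2 with array weights (36.6%), 3 with the run covariate (52%), 2 in the same 15 libraries without it (42.2%), and 2 in each fit added after seeing the data (32.8% to 39.3%). With 308 against 1 kPa in SUN1L cells it was 4 without that library (69.9%), 4 in fits of only the groups compared (57.8%), 2 with array weights (65.1%), 4 in each fit of 15 libraries (72.3% and 68%), and 2 in each added fit (49.5% to 59.9%). With 308 against 1 kPa in KDEL cells it was 1 with only the groups compared (24.9%), 3 with array weights (47%), 3 with the run covariate (25.4%) and 3 without blebbistatin library 3 and SUN1L library 2 on 1 kPa (36.6%). With Y27632 it was 2 with array weights (41.8%) and 1 without those 2 libraries (8.94%), and for the interaction it was 2 with the run covariate (26.2%). Leaving out 1 library gave 0 to 2 called members on 1 kPa, 0 to 4 for the substrates in SUN1L cells and 0 elsewhere.

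The sign of miR-29b-3p was the least stable. For SUN1L against KDEL on 1 kPa it was -0.42 on the log2 scale, against 0.28 with median-of-ratios and 0.36 with quantile scaling, 0.0085 with array weights, and 0.29 and 0.36 with these scalings without blebbistatin library 3; without that library and SUN1L library 2 on 1 kPa it was 0.0026, and the range over single libraries left out was -0.67 to 0.0026. On 308 kPa it was 0.089 with quantile scaling, 0.087 with the same without that library and 0.047 with array weights (range -0.45 to 0.29). For 308 against 1 kPa in SUN1L cells it was -0.0083 with median-of-ratios scaling without blebbistatin library 3. With Y27632 it was -0.074 and -0.076 under the scalings, and -0.10 and -0.080 without that library. For the interaction it was -0.49 and -0.27 under the scalings, -0.48 and -0.27 without that library, and -0.12 without both libraries (range -0.12 to 0.72). miR-29a-5p turned to -0.081 on 308 kPa with median-of-ratios scaling and to -0.066 without that library (range -0.41 to 0.47), and with Y27632 to -0.053 and -0.079. With blebbistatin, miR-29a-3p was 0.42 with array weights, 0.27 and 0.50 under the scalings without that library and 0.30 without both libraries (range -2.68 to 0.30), miR-29c-3p was 0.29, 0.19, 0.22 and 0.22 (range -3.1 to 0.22), and miR-29b-3p and miR-29a-5p were 0.24 and 0.52 with array weights. miR-29a-3p on 308 kPa ranged from -0.032 to 0.38. The cause was not tested.

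No paired analysis was possible because the replicate numbers only follow the order of the samples. A fit blocked on the run of title numbers, which the labels do not call a pairing, was made as the run covariate fit above, and its changed calls are given there. Tests on recovered reads were not run, since the floor of 1 is no multiple of 1 read in most libraries. Depth limits miR-29c-3p and miR-29a-5p most among the members, at 1 read each in blebbistatin library 3 and at 10 and 15 reads in SUN1L library 2 on 1 kPa.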

Other observations

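Ratios between strands that were chosen after their values had been seen set miR-29b-3p and miR-29c-3p against the passenger strands of their own hairpins. The miR-29b-1-5p value was 13.3%, 8.23% and 12.5% of the miR-29b-3p value in SUN1L cells on 1 kPa, against 12.9%, 25.1% and 31.3% in KDEL cells on 1 kPa, and it was 22.6%, 25.7% and 36.8% in SUN1L cells on 308 kPa, against 11.7%, 59.4% and 47.7% in KDEL cells on 308 kPa. The library with title number 37 to 42 had the lowest of these percentages in 4 of the 5 groups that held one, all but SUN1L on 1 kPa. The miR-29b-1-5p value as a share of miR-29a-3p, its neighbour in the cluster, lay between 0.422% and 0.461% in SUN1L cells on 1 kPa, against 0.391% to 0.462% in KDEL cells on 1 kPa.

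miR-29c-3p was set against miR-29c-5p, the other strand of its hairpin, which had few reads. On 1 kPa miR-29c-5p had 41, 9 and 41 reads in SUN1L cells and 47, 20 and 28 in KDEL cells. The miR-29c-3p value as a percentage of miR-29c-5p was 107% to 207% in SUN1L cells and 330.0% to 393% in KDEL cells on 1 kPa. On 308 kPa it was 498% to 794% in SUN1L cells, against 543% to 748% in KDEL cells. Its percentage of miR-29a-3p, from which it differs by 1 base, was 0.160% to 0.211% in SUN1L cells on 1 kPa, against 0.153% to 0.273% in KDEL cells on 1 kPa, and 0.165% to 0.204% in SUN1L cells on 308 kPa, against 0.167% to 0.205% in KDEL cells on 308 kPa. Whether reads of miR-29a-3p were counted as miR-29c-3p was not tested. How many other pairs of strands had ratios without overlap between groups was not counted.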
